A study of Mus musculus with 338 samples.

Results

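Nmnat2, Rasd2 and Kcnf1 are 3 genes whose RNA was higher at the last than at the first sampled day in pancreatic islets of mice kept on regular chow (RC), in each of the 6 strains studied. They are 3 of the 21382 genes in the deposited table of raw counts. They were selected on measured values of these same libraries: the log2 fold change of D90 over D02 on RC was above 0 in every strain. That comparison, and any other that uses RC mice of D02 or D90, is therefore given as a description without a test. The tests below use mice given High Fat, High Sugar (HFHS) food and RC mice of D10 and D30.

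The study measured islet RNA by sequencing, with 1 library per mouse. The mice fell into 48 groups of 4 to 11, formed by 6 inbred strains (A/J, 129S2/SvPas, DBA/2J, AKR/J, C57Bl/6J and BALB/cJ), 2 diets (172 HFHS and 166 RC mice) and 4 time points labelled D02, D10, D30 and D90, read here as days. On HFHS there were 40, 36, 47 and 49 mice at D02, D10, D30 and D90, and on RC 36, 32, 48 and 50. All groups share the tissue and the protocol, no allele or agent other than strain and diet is labelled, and the labels used here give neither the age nor the sex of the mice. Each day is a separate set of mice, so a difference between days is a difference between mice and not a change within one.

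Nmnat2 encodes a nicotinamide mononucleotide adenylyltransferase, the enzyme family that carries out the final step of NAD synthesis. The protein is short-lived, is known mainly from neurons, and is required for axons to survive. When it is lost, NMN builds up and the NAD-degrading enzyme Sarm1 is activated. Rasd2 encodes Rhes, a small GTPase of the Ras family best known from the striatum, where it binds mutant huntingtin and mTOR signalling components. Kcnf1 encodes Kv5.1, a potassium channel subunit that carries no current on its own and assembles with Kv2 subunits.

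The windows just upstream of the 3 genes are shown because the genes were chosen for 1 shared feature, higher RNA at D90 than at D02 on RC, and the sequence in front of their transcripts is where a common element would be looked for. They were read from RefSeq sequence of build GRCm38.p6 (the submitters' processing notes name mm9), cut at the first annotated transcript start, and run 5′ to 3′ on the strand of the gene. Capitals mark TGACG, the core of a cAMP response element.
Nmnat2: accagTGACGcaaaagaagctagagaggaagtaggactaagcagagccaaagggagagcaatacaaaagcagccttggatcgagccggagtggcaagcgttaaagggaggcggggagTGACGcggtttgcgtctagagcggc
Rasd2: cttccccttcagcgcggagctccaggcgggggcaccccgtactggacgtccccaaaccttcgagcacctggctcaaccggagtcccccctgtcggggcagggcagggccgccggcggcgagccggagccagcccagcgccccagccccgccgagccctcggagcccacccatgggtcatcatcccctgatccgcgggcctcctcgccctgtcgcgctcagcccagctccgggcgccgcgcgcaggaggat
Kcnf1: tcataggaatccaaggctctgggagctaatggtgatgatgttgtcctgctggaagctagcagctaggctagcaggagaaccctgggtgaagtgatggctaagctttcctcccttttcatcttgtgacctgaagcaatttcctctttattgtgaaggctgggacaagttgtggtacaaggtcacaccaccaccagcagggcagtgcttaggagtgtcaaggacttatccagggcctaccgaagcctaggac
The Nmnat2 window (chr1:152954851-152954992, plus strand) is shorter than the Rasd2 window (chr8:75213694-75213943, plus strand) and the Kcnf1 window (chr12:17176889-17177138, minus strand), which have 250 bases each. TGACG was found 2 times in the Nmnat2 window, both on its own strand, and on neither strand of the other two windows. It was present in 7.87% of the 32851 annotated windows cut to the length of that of Nmnat2 and in 17.8% of those of 250 bases. The other motifs searched on both strands were the full cAMP response element TGACGTCA (which contains TGACG), the E-box CACGTG, the GC box GGGCGG, the TATA box TATAAA, the CCAAT box, the glucocorticoid receptor site AGAACA (one arm) and the left arm of the RE1 element, TTCAGCACC, and none of these letters occurred in any of the 3 windows. In this order they were present in 0.32%, 2.70%, 15.6%, 6.99%, 18.9%, 9.70% and 0.19% of the shorter windows, and in 1.55%, 6.02%, 32.7%, 12.4%, 33.9%, 16.1% and 0.30% of windows of 250 bases. None of the 8 motifs searched was therefore found in all 3 windows.

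In the same build, Nmnat2 spans chr1:152954993-153119261 with 6 annotated transcripts of 2 to 12 exons, Rasd2 spans chr8:75213944-75224113 with 2 transcripts of 3 exons, and Kcnf1 spans chr12:17172100-17176888 as a single exon. An antisense gene, Gm28960, overlaps Nmnat2. The library kit keeps no strand, so reads of that transcript cannot be told from those of Nmnat2. All 3 genes passed the filter on low counts (16498 genes did). Their counts ran from 19 to 1323 reads per library for Nmnat2, from 15 to 1641 for Rasd2 and from 10 to 1365 for Kcnf1, out of 9526930 to 50751900 reads assigned to genes. Levels are given as CPM, a gene's reads relative to all reads assigned to genes, and fold changes as log2 ratios on counts scaled by TMM, which adjusts library size for composition. Between libraries of one group, counts differed by more than counting error, with a chi-square per degree of freedom of at least 4.48 over 1069 pairs.

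A set of libraries stood apart and touches several results. In 36 libraries a gene's deviation depended on its GC content by more than 0.5 log2 units per 10 GC points, and 34 of these were low for GC-rich genes. They include all 6 BALB/cJ HFHS mice of D02 and 7 of 8 DBA/2J RC mice of D90. Reads from Ins1 and Ins2, the insulin genes, were as low as 0.24% of assigned reads in these libraries, against a median of 21.7% over all libraries. The GC content of the members' longest transcripts was 50.1% for Nmnat2, 55.6% for Rasd2 and 54.2% for Kcnf1, against a median of 49.8% over the genes tested. In 9 libraries, 4 labelled C57Bl/6J at D90 and 5 labelled 129S2/SvPas at D02, genes that mark the strains were closest to another strain than the labelled one. All 9 are also among the 36. The 36 are called libraries beyond the GC bound below. Of 39 group medians of the 3 genes that rest on fewer libraries within the bound, 2 moved by over 1.5 times, both in A/J on HFHS and given with their values, and the 3 of BALB/cJ HFHS mice of D02 have no library left.

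On RC, the comparison on which the genes were chosen, Nmnat2 was 2.44-fold higher at D90 than at D02 as a mean over strains (log2 fold change 1.29), Rasd2 3.12-fold (1.64) and Kcnf1 2.68-fold (1.42). Among all genes tested, 1.81% (299 of 16498) were above 0 in all 6 strains. Of the 196 of these with a mean of at least 5 CPM, Rasd2 had the 2nd, Kcnf1 the 3rd and Nmnat2 the 4th largest mean log2 fold change. For each of the 3 genes the D90 and D02 mice on RC did not overlap in 4 of 6 strains, which held for 0.0606% of genes in at least 4 strains. The selection used these values, so nothing is read from those shares. The values by strain follow.

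In C57Bl/6J on RC, Nmnat2 stood at 6.52 CPM at D02 (2.95 to 7.03), 6.90 CPM at D10 (6.49 to 7.48), 9.29 CPM at D30 (6.54 to 13.4) and 11.5 CPM at D90 (3.64 to 19.4). In DBA/2J on RC, Nmnat2 stood at 3.48 CPM at D02 (2.14 to 4.47), 1.79, 2.55, 3.19, 3.64 and 4.36 CPM at D10, 3.93 CPM at D30 (3.71 to 5.73) and 10.4 CPM at D90 (6.95 to 12.03). In BALB/cJ on RC, Nmnat2 stood at 3.83 CPM at D02 (2.44 to 5.33), 4.27 CPM at D10 (3.02 to 6.40), 4.97 CPM at D30 (3.94 to 7.40) and 11.4 CPM at D90 (5.94 to 14.6). In these strains the median at D90 was above that at D30, and of the 3 the D90 and D02 mice overlapped in C57Bl/6J. In A/J on RC, Nmnat2 stood at 2.03, 3.05, 3.86, 4.75 and 7.52 CPM at D02, 3.16, 3.36, 4.60 and 5.41 CPM at D10, 4.80 CPM at D30 (2.37 to 6.43) and 9.35 CPM at D90 (7.89 to 12.3). In AKR/J on RC, Nmnat2 stood at 5.47, 6.81, 7.75, 8.12 and 9.74 CPM at D02, 8.01 CPM at D10 (6.26 to 9.51), 12.7 CPM at D30 (9.49 to 16.1) and 27.98 CPM at D90 (24.9 to 33.2). In 129S2/SvPas on RC, Nmnat2 stood at 15.6 CPM at D02 (9.62 to 26.2), 18.9, 19.5, 19.6, 19.98 and 20.02 CPM at D10, 24.6 CPM at D30 (17.4 to 41.7) and 31.6 CPM at D90 (19.3 to 41.5). The AKR/J and 129S2/SvPas mice were the highest at D90, and the 129S2/SvPas median at D02 was already above the D90 median of every other strain except AKR/J. Within the GC bound the C57Bl/6J mice of D90 ran from 3.64 to 13.2 CPM, the 129S2/SvPas mice of D02 had a median of 18.5 CPM (14.99 to 26.2), and the 1 DBA/2J mouse left at D90 stood at 7.61 CPM. The median of each group of 6 or more mice is given with its lowest and highest mouse, and smaller groups by all their mice.

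In C57Bl/6J on RC, Rasd2 stood at 1.91 CPM at D02 (1.59 to 2.46), 1.89 CPM at D10 (1.37 to 3.21), 3.67 CPM at D30 (2.88 to 4.39) and 5.62 CPM at D90 (1.70 to 8.51). In DBA/2J on RC, Rasd2 stood at 16.4 CPM at D02 (10.2 to 19.5), 18.5, 18.6, 21.1, 23.4 and 23.5 CPM at D10, 27.9 CPM at D30 (21.8 to 34.5) and 30.3 CPM at D90 (19.5 to 42.9). In BALB/cJ on RC, Rasd2 stood at 2.21 CPM at D02 (1.54 to 4.85), 3.26 CPM at D10 (1.90 to 4.37), 3.84 CPM at D30 (3.15 to 5.63) and 9.45 CPM at D90 (7.41 to 13.2). DBA/2J mice had the highest median of Rasd2 on each day and, on RC, the smallest D90 over D02 ratio (log2 0.80). That ratio rests on 7 D90 libraries beyond the GC bound: it was 1.11 within the bound, with 1 D90 mouse left, and 1.52 with GC curves as an offset, where 129S2/SvPas had the smallest (1.28). In A/J on RC, Rasd2 stood at 1.78, 2.30, 2.40, 2.85 and 3.66 CPM at D02, 2.65, 4.12, 4.75 and 6.43 CPM at D10, 7.71 CPM at D30 (5.66 to 9.12) and 16.8 CPM at D90 (14.2 to 25.97). In AKR/J on RC, Rasd2 stood at 1.91, 2.005, 2.81, 2.87 and 3.36 CPM at D02, 2.11 CPM at D10 (1.04 to 3.59), 3.37 CPM at D30 (3.02 to 4.82) and 6.84 CPM at D90 (4.85 to 7.94). In 129S2/SvPas on RC, Rasd2 stood at 6.71 CPM at D02 (0.727 to 8.66), 6.12, 7.43, 7.76, 7.98 and 9.07 CPM at D10, 10.9 CPM at D30 (6.06 to 14.6) and 18.2 CPM at D90 (9.66 to 44.9). A/J had the largest D90 over D02 ratio (log2 2.74), and the lowest 129S2/SvPas mouse of D02 is a library beyond the GC bound, within which the lowest stood at 5.30 CPM.

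In C57Bl/6J on RC, Kcnf1 stood at 10.04 CPM at D02 (6.75 to 12.99), 10.1 CPM at D10 (7.63 to 13.7), 12.2 CPM at D30 (10.8 to 14.6) and 17.4 CPM at D90 (6.41 to 20.9). In DBA/2J on RC, Kcnf1 stood at 7.37 CPM at D02 (6.69 to 11.7), 9.45, 11.2, 11.8, 11.98 and 12.6 CPM at D10, 17.5 CPM at D30 (13.8 to 23.3) and 33.4 CPM at D90 (18.03 to 36.2). In BALB/cJ on RC, Kcnf1 stood at 1.40 CPM at D02 (1.03 to 3.04), 3.21 CPM at D10 (2.04 to 5.36), 3.60 CPM at D30 (2.08 to 4.89) and 5.46 CPM at D90 (3.81 to 9.19). In DBA/2J all D90 mice were above all D02 mice, but 7 of those 8 libraries lie beyond the GC bound and the remaining one stood at 26.4 CPM. In A/J on RC, Kcnf1 stood at 2.24, 4.002, 4.32, 4.45 and 5.68 CPM at D02, 5.66, 5.85, 6.21 and 7.24 CPM at D10, 6.13 CPM at D30 (4.396 to 13.3) and 12.5 CPM at D90 (6.77 to 23.4). In AKR/J on RC, Kcnf1 stood at 0.434, 0.775, 1.08, 1.29 and 1.42 CPM at D02, 0.926 CPM at D10 (0.423 to 1.67), 2.44 CPM at D30 (1.35 to 2.90) and 4.32 CPM at D90 (3.28 to 6.01). In 129S2/SvPas on RC, Kcnf1 stood at 7.50 CPM at D02 (5.11 to 20.4), 6.31, 7.69, 8.10, 9.29 and 11.3 CPM at D10, 10.3 CPM at D30 (8.19 to 15.6) and 12.7 CPM at D90 (4.83 to 27.1). AKR/J had the lowest Kcnf1 RNA of the strains on each day and the largest D90 over D02 ratio (log2 2.06), and C57Bl/6J had the smallest (log2 0.65). With GC curves as an offset DBA/2J had the largest ratio (2.22, against 2.14 in AKR/J). In the same fit the 129S2/SvPas value for Kcnf1 turned to -0.15, against 0.83 as counted. Over all alternatives this value ran from -0.15 to 1.47. The highest 129S2/SvPas mouse of D02, at 20.4 CPM, is a library beyond the GC bound. Within the bound the 5 D02 mice had a median of 6.18 CPM (5.11 to 7.76).

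**Figure D1:**
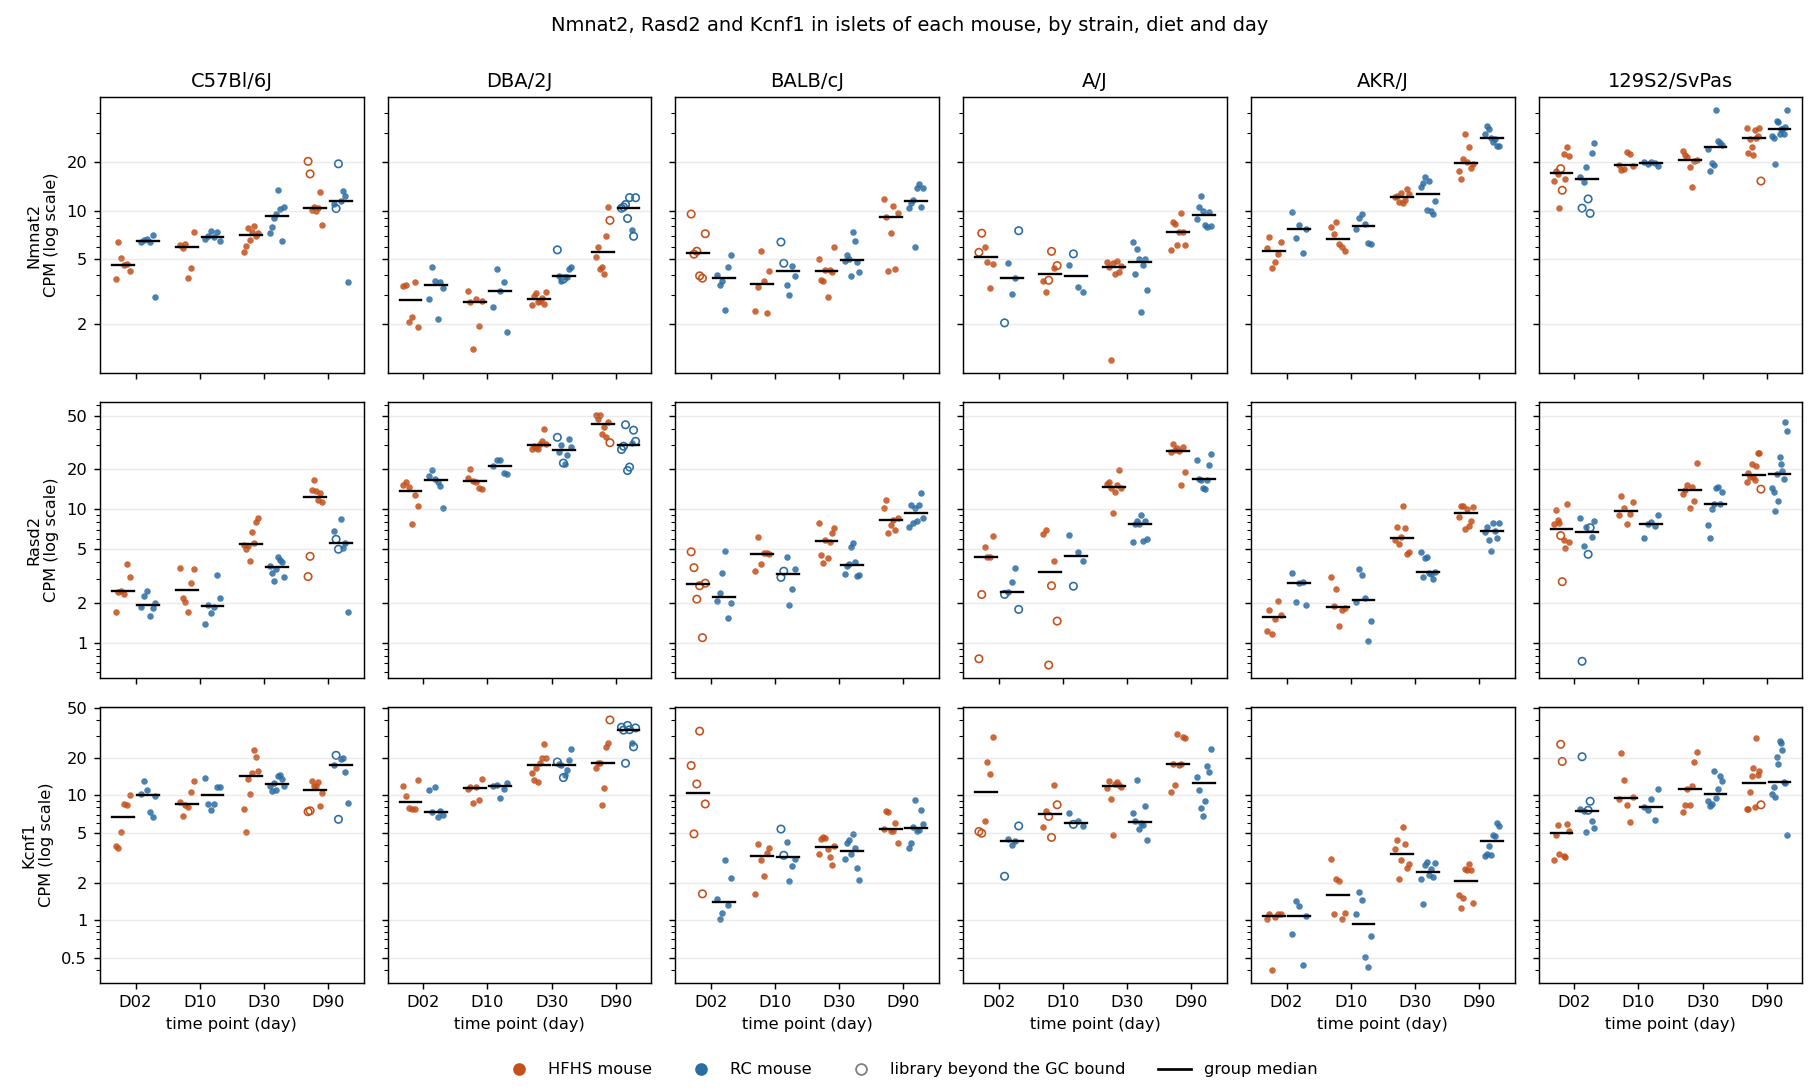
CPM of Nmnat2, Rasd2 and Kcnf1 (rows, log axis) in each mouse by day, strain (columns) and diet, with HFHS mice left of RC mice. Short lines are group medians and open symbols are libraries beyond the GC bound, among them all 6 BALB/cJ HFHS mice of D02, where Kcnf1 ran from 1.62 to 32.6 CPM.

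Whether the same genes were also higher at D90 was asked in the HFHS mice, which the rule of choice did not use. Earlier results of these data were known when the genes and tests were chosen. As a mean over the 6 strains, Rasd2 rose 4.201-fold at D90 over D02 (log2 fold change 2.07, SE 0.10, adjusted p = 8.95e-52; edgeR quasi-likelihood F test, Benjamini-Hochberg over 16498 genes, as for every adjusted p below), Nmnat2 rose 2.06-fold (log2 fold change 1.05, SE 0.072, adjusted p = 4.96e-33) and Kcnf1 rose 1.47-fold (log2 fold change 0.56, SE 0.12, adjusted p = 2.03e-05). Of all genes tested, 30.8% were called higher in this comparison, and the median log2 fold change of all genes was -0.0045. Within the GC bound, which leaves 5 strains because BALB/cJ has no D02 library inside it, the log2 fold changes were 2.10 for Rasd2, 1.10 for Nmnat2 and 0.93 for Kcnf1. Without BALB/cJ alone the Kcnf1 value was 0.85, with GC curves as an offset 0.37. Libraries are of whole islets, so more cells of a type and more RNA per cell cannot be told apart.

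In C57Bl/6J on HFHS, Rasd2 stood at 2.44 CPM at D02 (1.70 to 3.90), 2.49 CPM at D10 (1.69 to 3.61), 5.48 CPM at D30 (4.12 to 8.64) and 12.4 CPM at D90 (3.13 to 16.6). The 2 lowest D90 mice, at 3.13 and 4.44 CPM, are libraries beyond the GC bound whose marking genes were closest to 129S2/SvPas, and the other 6 ran from 11.3 to 16.6 CPM, all above the D02 mice. In DBA/2J on HFHS, Rasd2 stood at 13.7 CPM at D02 (7.75 to 15.9), 16.2 CPM at D10 (14.2 to 19.9), 30.2 CPM at D30 (28.1 to 39.8) and 43.3 CPM at D90 (31.5 to 50.8). In BALB/cJ on HFHS, Rasd2 stood at 2.73 CPM at D02 (1.09 to 4.80), 4.65 CPM at D10 (3.46 to 6.17), 5.80 CPM at D30 (3.94 to 7.87) and 8.34 CPM at D90 (6.67 to 11.7). In A/J on HFHS, Rasd2 stood at 4.42 CPM at D02 (0.759 to 6.35), 3.39 CPM at D10 (0.681 to 6.95), 14.8 CPM at D30 (9.37 to 19.6) and 27.4 CPM at D90 (15.3 to 30.7). In these 3 strains every D90 mouse was above every D02 mouse. In A/J, 2 of 6 libraries of D02 and 3 of 6 of D10 lie beyond the GC bound, and within it the medians were 4.84 CPM at D02 and 6.55 CPM at D10, so that D10 was above D02 there and below it over all libraries. In AKR/J on HFHS, Rasd2 stood at 1.55 CPM at D02 (1.16 to 2.06), 1.86 CPM at D10 (1.34 to 3.13), 6.05 CPM at D30 (4.61 to 10.6) and 9.41 CPM at D90 (7.13 to 10.5). In 129S2/SvPas on HFHS, Rasd2 stood at 7.06 CPM at D02 (2.87 to 10.9), 9.68 CPM at D10 (7.78 to 12.5), 13.9 CPM at D30 (10.2 to 22.2) and 18.1 CPM at D90 (14.1 to 26.4). Here too the D90 and D02 mice did not overlap, so that C57Bl/6J, with its 2 libraries that stand apart, was the one strain in which they did. The share of all genes with every D90 mouse above every D02 mouse was 0.261% in 129S2/SvPas, 1.15% in A/J, 1.32% in DBA/2J, 19.0% in BALB/cJ and 1.99% in AKR/J.

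Rasd2 was called higher at D90 in all 6 strains. The rise was largest in A/J (6.97-fold; log2 fold change 2.80, SE 0.27, adjusted p = 4.49e-18) and AKR/J (5.84-fold; log2 fold change 2.55, SE 0.27, adjusted p = 3.79e-15). It was smallest in 129S2/SvPas (2.73-fold; log2 fold change 1.45, SE 0.21, adjusted p = 4.02e-09). C57Bl/6J, DBA/2J and BALB/cJ lay between these, with log2 fold changes of 1.97, 1.89 and 1.76 (adjusted p from 7.60e-10 to 2.14e-09). The share of all genes called higher was 5.38% in 129S2/SvPas, 7.39% in C57Bl/6J, 16.1% in A/J, 12.1% in DBA/2J, 36.9% in BALB/cJ and 6.73% in AKR/J. The BALB/cJ value was 0.54 with each library's GC curve as an offset (adjusted p = 0.02001), and its 6 D02 libraries all lie beyond the GC bound.

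In C57Bl/6J on HFHS, Nmnat2 stood at 4.65 CPM at D02 (3.81 to 6.43), 5.98 CPM at D10 (3.85 to 7.44), 7.12 CPM at D30 (5.58 to 8.03) and 10.4 CPM at D90 (8.17 to 20.1). The 2 highest D90 mice, at 20.1 and 16.8 CPM, are the same 2 libraries closest to 129S2/SvPas, the strain with the most Nmnat2 RNA, and without them the D90 mice ran from 8.17 to 12.9 CPM. In DBA/2J on HFHS, Nmnat2 stood at 2.82 CPM at D02 (1.91 to 3.62), 2.74 CPM at D10 (1.41 to 3.19), 2.84 CPM at D30 (2.60 to 3.17) and 5.59 CPM at D90 (4.05 to 10.5). In BALB/cJ on HFHS, Nmnat2 stood at 5.51 CPM at D02 (3.84 to 9.53), 3.54 CPM at D10 (2.35 to 5.63), 4.26 CPM at D30 (2.94 to 5.97) and 9.15 CPM at D90 (4.26 to 11.8). In A/J on HFHS, Nmnat2 stood at 5.18 CPM at D02 (3.36 to 7.26), 4.09 CPM at D10 (3.14 to 5.61), 4.52 CPM at D30 (1.20 to 4.89) and 7.38 CPM at D90 (5.69 to 9.68). DBA/2J mice of D90 were all above those of D02, while BALB/cJ and A/J mice overlapped. In AKR/J on HFHS, Nmnat2 stood at 5.66 CPM at D02 (4.45 to 6.88), 6.69 CPM at D10 (5.62 to 8.51), 12.2 CPM at D30 (11.2 to 13.6) and 19.7 CPM at D90 (15.7 to 29.8). In 129S2/SvPas on HFHS, Nmnat2 stood at 17.1 CPM at D02 (10.4 to 24.8), 19.0 CPM at D10 (17.7 to 23.0), 20.4 CPM at D30 (14.01 to 23.4) and 27.9 CPM at D90 (15.2 to 32.5). AKR/J mice did not overlap and their median went up at each day, whereas 129S2/SvPas mice overlapped between D90 and D02. The D90 and D02 mice thus did not overlap in 3 strains, AKR/J, DBA/2J and C57Bl/6J. The share of all genes with such a gap was 1.99%, 1.32% and 2.53% in these strains.

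Nmnat2 was called higher at D90 on HFHS in all 6 strains as well. By strain, the share of all genes called higher ran from 5.38% in 129S2/SvPas to 36.9% in BALB/cJ. The largest rise was in AKR/J (3.71-fold; log2 fold change 1.89, SE 0.19, adjusted p = 1.07e-17), followed by C57Bl/6J (2.40-fold; log2 fold change 1.27, SE 0.18, adjusted p = 2.37e-08) and DBA/2J (2.40-fold; log2 fold change 1.26, SE 0.18, adjusted p = 1.54e-08). BALB/cJ, A/J and 129S2/SvPas had smaller log2 fold changes of 0.65, 0.61 and 0.59 (adjusted p from 7.09e-04 to 0.00301). Without the libraries closest to another strain the C57Bl/6J value was 1.06.

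In C57Bl/6J on HFHS, Kcnf1 stood at 6.71 CPM at D02 (3.77 to 10.1), 8.56 CPM at D10 (6.87 to 12.97), 14.3 CPM at D30 (5.12 to 23.2) and 11.1 CPM at D90 (7.38 to 12.97). In DBA/2J on HFHS, Kcnf1 stood at 8.86 CPM at D02 (7.73 to 13.1), 11.4 CPM at D10 (8.62 to 13.5), 17.3 CPM at D30 (12.7 to 25.7) and 18.1 CPM at D90 (8.29 to 40.1). In BALB/cJ on HFHS, Kcnf1 stood at 10.4 CPM at D02 (1.62 to 32.6), 3.23 CPM at D10 (1.61 to 4.10), 3.84 CPM at D30 (2.74 to 4.67) and 5.34 CPM at D90 (4.11 to 7.51). The BALB/cJ mice of D02, all beyond the GC bound, had the widest ratio of highest to lowest mouse of any group for this gene, and no other BALB/cJ mouse on HFHS was above 7.51 CPM. In A/J on HFHS, Kcnf1 stood at 10.6 CPM at D02 (4.96 to 29.4), 7.13 CPM at D10 (4.60 to 12.1), 11.8 CPM at D30 (4.83 to 12.9) and 17.8 CPM at D90 (10.6 to 31.1). Within the GC bound, which leaves 4 of the 6 A/J mice of D02, their median was 16.6 CPM, above the D10 and D30 medians and near that of D90. In AKR/J on HFHS, Kcnf1 stood at 1.09 CPM at D02 (0.398 to 1.12), 1.60 CPM at D10 (1.02 to 3.08), 3.37 CPM at D30 (2.15 to 5.53) and 2.05 CPM at D90 (1.25 to 2.83). In 129S2/SvPas on HFHS, Kcnf1 stood at 4.98 CPM at D02 (3.04 to 25.6), 9.57 CPM at D10 (6.11 to 21.9), 11.2 CPM at D30 (7.38 to 22.4) and 12.5 CPM at D90 (7.72 to 28.5). AKR/J was the one strain whose D90 and D02 mice did not overlap, and there the D30 mice had the highest median. In 129S2/SvPas the 2 highest D02 mice, at 25.6 and 18.6 CPM, are libraries beyond the GC bound, and the other 8 ran from 3.04 to 5.84 CPM.

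Kcnf1 was called higher at D90 on HFHS in 4 strains: DBA/2J (2.24-fold; log2 fold change 1.16, SE 0.30, adjusted p = 0.00178), AKR/J (2.03-fold; log2 fold change 1.02, SE 0.32, adjusted p = 0.0158), 129S2/SvPas (1.74-fold; log2 fold change 0.80, SE 0.24, adjusted p = 0.0103) and A/J (1.64-fold; log2 fold change 0.72, SE 0.29, adjusted p = 0.0357). The share of all genes called higher was 12.1% in DBA/2J, 6.73% in AKR/J, 5.38% in 129S2/SvPas and 16.1% in A/J. C57Bl/6J did not pass the test (log2 fold change 0.57, SE 0.29, adjusted p = 0.175) but was called under limma voom with quality weights (0.89, adjusted p = 8.71e-04). BALB/cJ was called lower (log2 fold change -0.93, SE 0.30, adjusted p = 0.00323), where 36.5% of all genes were called lower, and its value was -0.018 in the authors' normalized table (adjusted p = 0.960) and -1.79 with GC curves as an offset (adjusted p = 3.39e-06). Within the GC bound the A/J call was lost (0.33, adjusted p = 0.385), and its sign turned under limma voom with quality weights (-0.067). With only the libraries compared in the fit, A/J (adjusted p = 0.129), AKR/J (0.107) and 129S2/SvPas (0.0864) did not pass. The 129S2/SvPas value was 1.57 within the GC bound and 0.32 with GC curves as an offset. The part of library GC bias in the Kcnf1 values was not tested.

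**Figure D2:**
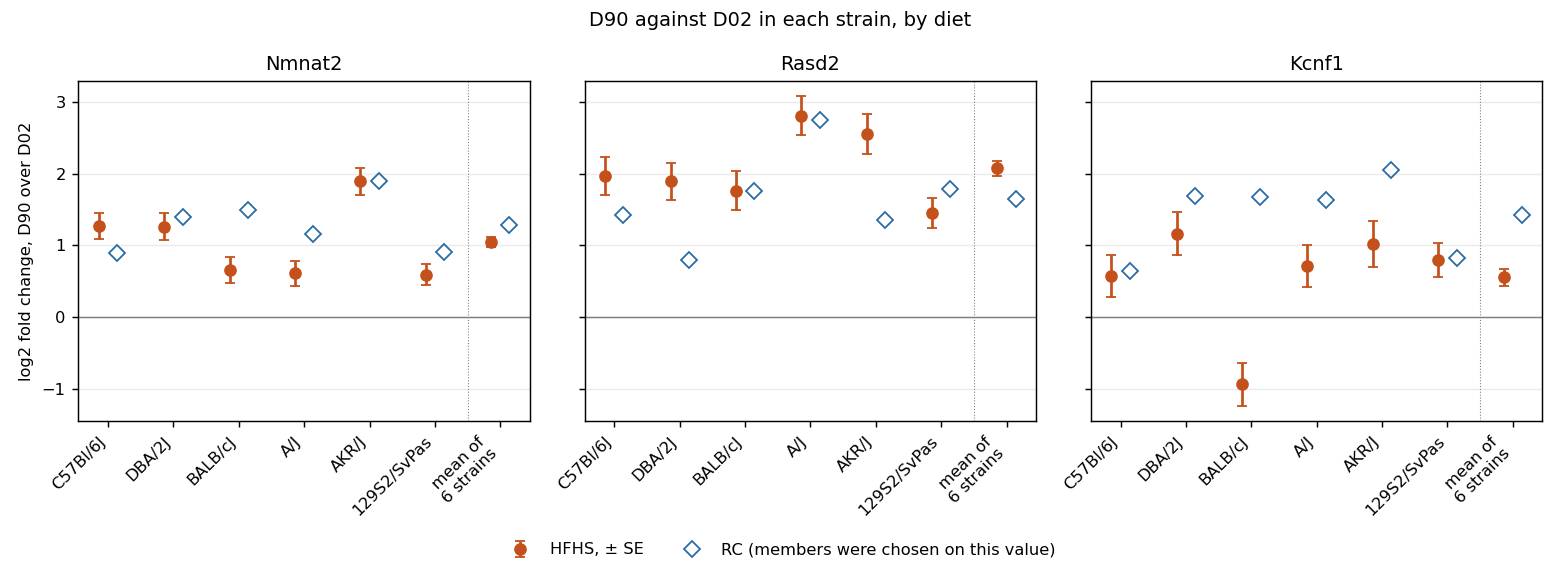
Log2 fold change of D90 over D02 by strain and as a mean over the 6 strains, for HFHS (filled, ± SE) and RC (open, no test because the genes were chosen on it). Rasd2 and Nmnat2 lie above 0 in every strain on HFHS, and Kcnf1 lies at -0.93 in BALB/cJ.

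The size of the change between D02 and D90 on HFHS differed between strains for each gene, by a test of the strain by time interaction with 5 degrees of freedom: F = 9.13, adjusted p = 1.34e-07 for Nmnat2, F = 4.70, adjusted p = 5.99e-04 for Rasd2 and F = 6.48, adjusted p = 1.97e-05 for Kcnf1. Such a difference was called for 86.7% of all genes, so the 3 calls are near the background. Without the libraries beyond the GC bound F was 10.2, 7.31 and 3.52 for the same genes, over 5 strains, and all 3 calls were made. The strains did not take the same order for the 3 genes: A/J had the largest rise of Rasd2 and the second smallest of Nmnat2, and AKR/J had the largest rise of Nmnat2.

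On HFHS each of the 3 genes was called higher at D30 than at D10, and the calls at the other steps varied by gene. Steps and genes were not tested against each other. Nmnat2 did not pass the test between D02 and D10 (D10 over D02: log2 fold change -0.042, SE 0.075, adjusted p = 0.706), rose a little between D10 and D30 (log2 fold change 0.28, SE 0.073, adjusted p = 0.00275) and most between D30 and D90 (log2 fold change 0.81, SE 0.067, adjusted p = 8.01e-24). Rasd2 rose at each step, by a log2 fold change of 0.36 from D02 to D10 (SE 0.11, adjusted p = 0.00795), of 1.10 from D10 to D30 (SE 0.10, adjusted p = 3.19e-18) and of 0.61 from D30 to D90 (SE 0.093, adjusted p = 6.43e-08). Kcnf1 rose between D10 and D30 (log2 fold change 0.56, SE 0.12, adjusted p = 2.86e-04). It did not pass the test between D02 and D10 (-0.10, adjusted p = 0.596) or between D30 and D90 (0.094, adjusted p = 0.621). Of all genes, 13.2% were called higher at D10 than at D02, 10.4% at D30 than at D10 and 11.9% at D90 than at D30. The first step depended on the libraries beyond the GC bound: without them the D10 over D02 value of Rasd2 was 0.26 (adjusted p = 0.0563) and that of Kcnf1 turned to 0.35 (adjusted p = 0.0408). Neighbouring steps share a set of mice and are not independent.

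From D10 to D30 the median of each gene went up in all 6 strains on HFHS. From D30 to D90 it went up in all 6 for Nmnat2 and Rasd2 and in 4 for Kcnf1, the exceptions being C57Bl/6J and AKR/J. The shares of all genes that did so were not counted, so nothing is read from these counts of strains. No HFHS library of D30 and 3 of D10 lie beyond the GC bound.

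The rule that chose the genes did not use the RC mice of D10 and D30, although earlier results of these data were known. Between these days Nmnat2 rose 1.31-fold (log2 fold change 0.39, SE 0.076, adjusted p = 0.00207) and Rasd2 rose 1.48-fold (log2 fold change 0.57, SE 0.11, adjusted p = 8.87e-04), while Kcnf1 was 1.36-fold higher at D30 without passing the test (log2 fold change 0.45, SE 0.13, adjusted p = 0.107). The median at D30 was above that at D10 in all 6 strains for each gene, but the share of all genes that did so was not counted. Few genes were called here: 0.0909% (15 of 16498) were higher, so Nmnat2 and Rasd2 are 2 of 15. Other fits called from 22 genes in both directions with DESeq2 size factors to 922 without the libraries beyond the GC bound and 3641 with limma voom, against 28 as reported, and Kcnf1 was called in both of the last named (log2 fold changes 0.46 and 0.45). The other RC steps hold mice used in the choice and are given without a test. From D02 to D10 they were 0.075 for Nmnat2, 0.24 for Rasd2 and 0.32 for Kcnf1, and from D30 to D90 they were 0.83, 0.83 and 0.65.

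**Figure D3:**
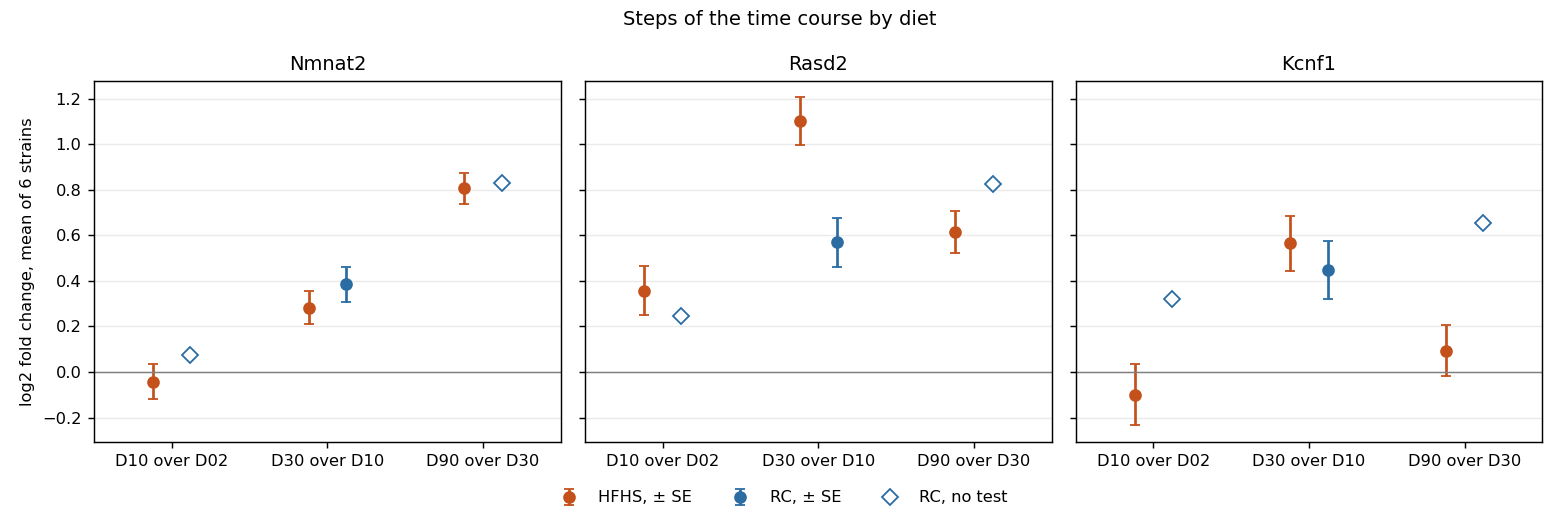
Log2 fold change between neighbouring days as a mean over the 6 strains, for HFHS (± SE), RC from D10 to D30 (± SE) and the RC steps that hold mice used in the choice (open, no test). The largest HFHS step was D90 over D30 for Nmnat2 (0.81) and D30 over D10 for Rasd2 (1.10) and Kcnf1 (0.56).

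Diet was compared at D10 and D30, with HFHS set against RC mice of the same day. At D10 none of the 3 genes passed the test: the log2 fold change of HFHS over RC was -0.15 for Nmnat2 (SE 0.080, adjusted p = 0.514), 0.11 for Rasd2 (SE 0.11, adjusted p = 0.820) and 0.19 for Kcnf1 (SE 0.13, adjusted p = 0.657). At that day 0.946% of all genes were called in either direction, and HFHS and RC mice overlapped in all 6 strains for each gene.

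At D30 the genes parted. Rasd2 was higher on HFHS, 1.55-fold (log2 fold change 0.64, SE 0.094, adjusted p = 6.99e-08). Nmnat2 was lower on HFHS, at 0.837 times its level on RC (log2 fold change -0.26, SE 0.067, adjusted p = 0.00550). Kcnf1 was 1.24-fold higher on HFHS, just short of the threshold (log2 fold change 0.31, SE 0.11, adjusted p = 0.0533), and it was called under 9 of 12 alternatives. At this day 9.93% of all genes (1638) were called in either direction. The count was 7941 genes under limma voom and 7633 with only the D30 libraries in the fit.

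Rasd2 at D30 was higher on HFHS in all 6 strains by the strain's own log2 fold change. It was 1.05 in A/J, 0.84 in AKR/J, 0.76 in C57Bl/6J, 0.53 in BALB/cJ, 0.37 in 129S2/SvPas and 0.26 in DBA/2J, with no test within a strain. In A/J every HFHS mouse (9.37 to 19.6 CPM) was above every RC mouse (5.66 to 9.12 CPM), which held for 0.0424% of all genes, and in the other strains the diets overlapped. Nmnat2 at D30 was lower on HFHS in 5 strains, from -0.44 in DBA/2J to -0.11 in A/J, and at 0.0045 in AKR/J. In DBA/2J every HFHS mouse (2.60 to 3.17 CPM) was below every RC mouse (3.71 to 5.73 CPM), which held for 12.3% of all genes there. Kcnf1 was above 0 in all 6 strains, from 0.12 in DBA/2J to 0.67 in A/J, and the diets overlapped in each. The shares of all genes with the same sign in as many strains were not counted, so nothing is read from these signs.

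The diet difference at D02 and D90 uses RC mice on which the genes were chosen and is a description. At D02 it was -0.037 for Nmnat2, -0.0072 for Rasd2 and 0.62 for Kcnf1, the last with 2.62 in BALB/cJ, whose HFHS libraries all lie beyond the GC bound. At D90 it was -0.28 for Nmnat2, with 5 strains below 0, 0.42 for Rasd2, with 4 strains above 0, and -0.25 for Kcnf1, with 4 strains below 0. In AKR/J the HFHS mice of D90 (1.25 to 2.83 CPM of Kcnf1) were all below the RC mice (3.28 to 6.01 CPM). The share of all genes with such a gap in AKR/J at D90 was not counted, so nothing is read from it.

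**Figure D4:**
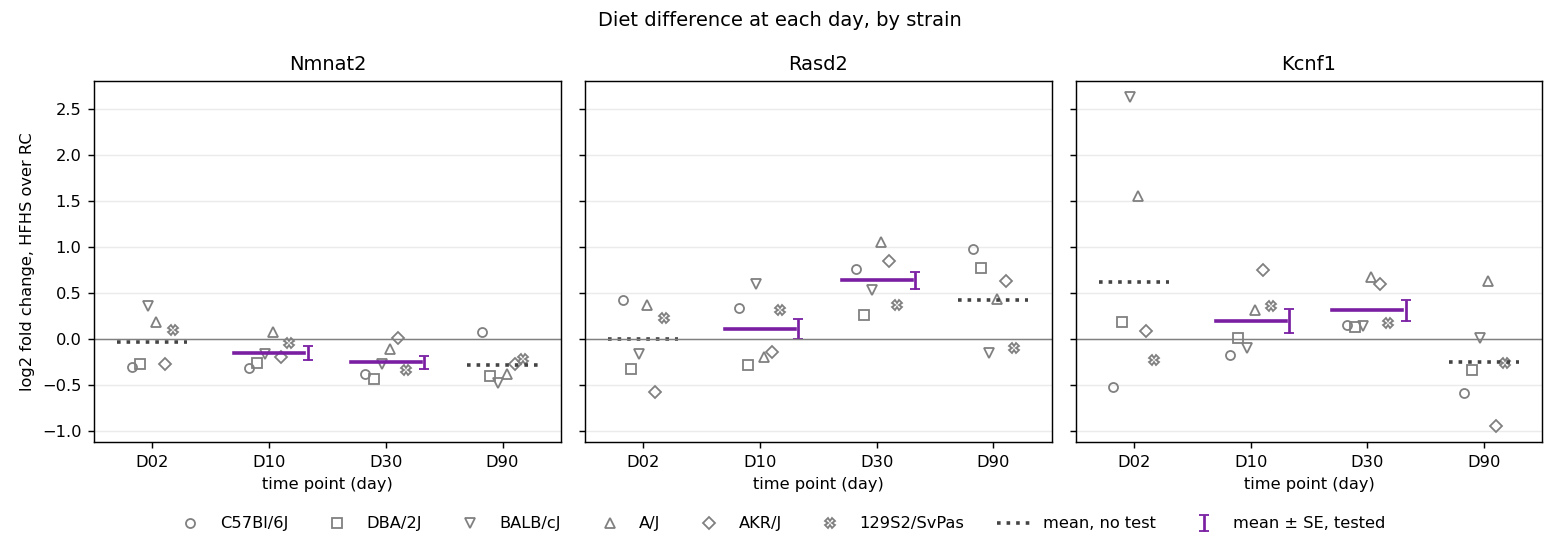
Log2 fold change of HFHS over RC by day, for each strain (grey symbols) and as a mean over the 6 strains (lines), with ± SE at D10 and D30, the days that were tested. At D30 the mean was 0.64 for Rasd2, -0.26 for Nmnat2 and 0.31 for Kcnf1.

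Strains differed in how much RNA of each gene they had, and in a different order for each gene. On HFHS, over the 4 days with equal weight, Nmnat2 was highest in 129S2/SvPas, 3.51-fold above the mean of the other 5 strains (log2 fold change 1.81, SE 0.057, adjusted p = 2.87e-93), followed by AKR/J (1.59-fold; log2 fold change 0.67, SE 0.065, adjusted p = 2.62e-20). It was lowest in DBA/2J (log2 fold change -1.23, SE 0.076, adjusted p = 1.47e-40), with A/J at -0.62 and BALB/cJ at -0.53, both called, and C57Bl/6J at -0.10, not called (adjusted p = 0.217). C57Bl/6J was called lower within the GC bound (-0.24) and under limma voom (-0.15). The geometric means ran from 20.3 CPM in 129S2/SvPas to 3.47 CPM in DBA/2J. Of the neighbours in that order, C57Bl/6J and BALB/cJ, and BALB/cJ and A/J, differed by less than the larger SD among mice of a group.

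DBA/2J, the strain with the least Nmnat2 RNA, had the most Rasd2 RNA, 3.85-fold above the mean of the other strains (log2 fold change 1.95, SE 0.083, adjusted p = 8.38e-67). 129S2/SvPas was also higher (log2 fold change 0.71, SE 0.085, adjusted p = 5.18e-14), A/J was not called (0.17, adjusted p = 0.112), and BALB/cJ (-0.74), C57Bl/6J (-0.92) and AKR/J (-1.16) were lower. A/J was called higher within the GC bound (0.24), with GC curves as an offset (0.26) and under limma voom (0.32), and its value was -0.066 in the authors' normalized table. The geometric mean was 23.8 CPM in DBA/2J, 11.5 in 129S2/SvPas and 3.93 in AKR/J. Only the gap between DBA/2J and 129S2/SvPas was larger than the larger SD of the neighbours compared. Kcnf1 was highest in DBA/2J too (2.16-fold; log2 fold change 1.11, SE 0.10, adjusted p = 1.49e-21), with A/J (0.80), 129S2/SvPas (0.59) and C57Bl/6J (0.36) above and BALB/cJ (-0.57) below the mean of the others, all called. It was lowest in AKR/J, at 0.204 times the mean of the other strains (log2 fold change -2.29, SE 0.14, adjusted p = 3.22e-42). Its geometric means were 14.2 CPM in DBA/2J and 1.95 in AKR/J, and the gaps above BALB/cJ and above AKR/J exceeded the larger SD, whereas those among the upper 4 strains did not.

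Differences of this kind were common: 47.6% of all genes were called for 129S2/SvPas, 50.2% for C57Bl/6J, 59.0% for A/J, 56.7% for DBA/2J, 51.6% for BALB/cJ and 58.9% for AKR/J. On RC the strains with the highest and lowest geometric means were the same for Nmnat2 and Kcnf1, and DBA/2J was again highest for Rasd2, with C57Bl/6J lowest.

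**Figure D5:**
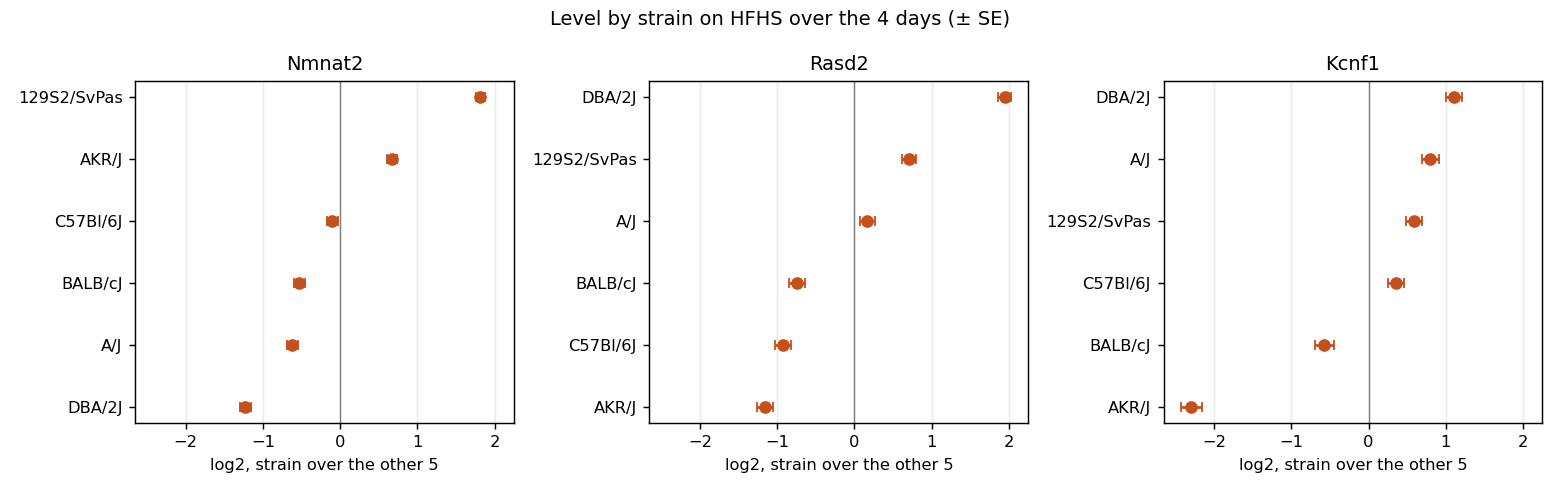
Log2 ratio of each strain to the mean of the other 5 on HFHS over the 4 days (± SE), strains ordered from high (top) to low within each gene. DBA/2J is lowest for Nmnat2 (-1.23) and highest for Rasd2 (1.95) and Kcnf1 (1.11).

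The genes whose pattern over the 48 groups was most like that of each member, after the mean of each strain was subtracted, are named by Pearson's r over group means of log2 CPM, among genes with a mean of at least 5 CPM. For Nmnat2 these were Dock3 (0.88), which encodes a guanine nucleotide exchange factor, Foxp2 (0.86), a forkhead transcription factor, Ak5 (0.83), an adenylate kinase, Zfp462 (0.82) and Zcchc12 (0.82). For Rasd2 they were Egf (0.87), the epidermal growth factor, Abcb4 (0.86), a phospholipid transporter, Barhl1 (0.84), a homeobox transcription factor, Mapkapk3 (0.82), a protein kinase, and Degs2 (0.81), an enzyme of sphingolipid synthesis. For Kcnf1 they were Ppm1e (0.81), a protein phosphatase, Aldh1l2 (0.80), a mitochondrial folate enzyme, Trpc4 (0.79), a cation channel, Dock3 (0.74) and Fam70a (0.74). Dock3 is the one gene named for both Nmnat2 and Kcnf1. Among the members r was 0.72 for Nmnat2 with Rasd2, 0.73 for Nmnat2 with Kcnf1 and 0.67 for Rasd2 with Kcnf1. These r include the RC groups on which the members were chosen and share libraries and depth.

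With the group mean removed, r over all mice was 0.10 for Nmnat2 with Rasd2, -0.029 for Nmnat2 with Kcnf1 and 0.21 for Rasd2 with Kcnf1, and 0.20, 0.056 and 0.35 over the 302 mice within the GC bound. By strain, r of Rasd2 with Kcnf1 ran from -0.27 in 129S2/SvPas to 0.53 in C57Bl/6J. The negative value did not hold on ranks: Spearman's rho was 0.064 in 129S2/SvPas, and the strains ran from -0.049 in DBA/2J to 0.58 in C57Bl/6J.

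The other genes of the pathways in which the members act were examined on HFHS at D90 against D02, where 30.8% of all genes were called higher and 30.3% lower, the shares against which each count of a list is to be read. In either direction 61.1% were called, against 40.7% within the GC bound and 24.3% without BALB/cJ. These lists and the cell type markers below were counted over all libraries only. The part of library GC bias in the counts was not tested. Of 27 other genes of NAD metabolism that were tested, 11 rose and 7 fell, with a median log2 fold change of 0.13 against -0.0045 over all genes. The sister enzyme Nmnat3 (log2 fold change 0.37, adjusted p = 1.09e-08), the deacetylase Sirt6 (log2 fold change 0.71, adjusted p = 2.29e-06) and the NAD-dependent deacetylase Sirt2 (log2 fold change 0.34, adjusted p = 7.39e-07) rose, Nampt (log2 fold change -0.35, adjusted p = 3.85e-07), which makes NMN from nicotinamide, fell, and Nmnat1 did not pass (0.14, adjusted p = 0.127). Each of these changes was smaller than that of Nmnat2. Of 13 genes of NMNAT2 turnover and axon survival, 3 rose and 7 fell. Sarm1 (log2 fold change 0.31, adjusted p = 1.11e-04) rose, while Stmn2 (log2 fold change -1.16, adjusted p = 6.37e-17), a neuronal tubulin-binding protein, Mapk8 (log2 fold change -0.29, adjusted p = 9.00e-07), a JNK kinase, Map2k4 (log2 fold change -0.26, adjusted p = 7.01e-07), which activates it, and Zdhhc17 (log2 fold change -0.31, adjusted p = 7.80e-07), which palmitoylates NMNAT2, fell.

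Of 22 other small GTPases related to Rasd2 and their partners, 5 rose and 5 fell. The closest relative Rasd1 (log2 fold change 0.31, adjusted p = 0.0153) rose, as did Rasl10b (log2 fold change 0.93, adjusted p = 3.80e-15) and Diras1 (log2 fold change 0.56, adjusted p = 2.99e-09), and the inhibitory G protein subunits Gnai1 (log2 fold change -0.50, adjusted p = 1.87e-10) and Gnai3 (log2 fold change -0.42, adjusted p = 6.27e-10) fell. Of 10 other genes of Kv2 channels and silent Kv subunits, 1 rose and 3 fell. The silent subunit Kcns3 (log2 fold change 0.48, adjusted p = 0.00181) rose, and the silent subunit Kcng3 (log2 fold change -0.77, adjusted p = 3.40e-07), the channel-associated Vapa (log2 fold change -0.26, adjusted p = 4.45e-06) and the accessory subunit Kcne3 (log2 fold change -0.56, adjusted p = 1.05e-04) fell.

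Of 18 genes of islet maturation and ageing, 3 rose and 10 fell. Aldh1a3 (log2 fold change 2.15, adjusted p = 4.10e-28), a retinaldehyde dehydrogenase, rose, Npy (log2 fold change -1.18, adjusted p = 5.70e-15), which encodes a neuropeptide, and Ezh2 (log2 fold change -0.58, adjusted p = 2.40e-13), a chromatin modifier that is high in young islets, fell. At D30, HFHS against RC, 2 of 13 genes of the turnover list and 2 of 22 of the small GTPase list were lower. Of the 18 of the maturation list 2 were higher and 2 lower. In that comparison 9.93% of all genes were called in either direction.

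Markers of the cell types that an islet preparation holds were set beside these values. On HFHS, D90 against D02, the summed level of 10 beta cell markers had a median of 255203 CPM (46550.2 to 462338) at D90 and 224655 CPM (48068 to 344022) at D02, and 6 rose and 2 fell. Of these libraries, 10 of 40 at D02 and 4 of 49 at D90 lie beyond the GC bound, and their part in the sums was not tested. On RC the median of the same sum was 252876 CPM at D90 and 250868 CPM at D02. Of 5 alpha cell markers 4 fell and 1 did not pass, with a summed level of 28683 CPM (5718 to 112632) at D90 and 42898 CPM (27538 to 111114) at D02. Of 13 neuron markers 2 rose and 9 fell, with a summed level of 189.9 CPM (115.03 to 312) at D90 and 217 CPM (123.1 to 284) at D02. Of 8 Schwann cell and glia markers 1 rose and 6 fell. The summed level of the glia markers was 126.4 CPM (84.4 to 163) at D90 and 140.7 CPM (79.2 to 206) at D02, so that for both lists the median of the sum was lower at D90. The median log2 fold change of the markers was -0.80 for neurons and -0.61 for glia, against -0.0045 over all genes. Sums weigh abundant genes most. The neuron marker Th, with a mean of 99.15 CPM, rose (log2 fold change 0.35), and the glia marker Mbp, with 100.6 CPM, did not pass (0.028). Ins1 and Ins2 make up most of the beta cell sum.

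Of 12 acinar cell markers 8 rose and 4 did not pass, with a summed level of 3387 CPM (416 to 26131) at D90 and 3541 CPM (43.3 to 10073) at D02. With their mean as a covariate the log2 fold changes of Rasd2, Nmnat2 and Kcnf1 were 2.04, 1.07 and 0.56. Of 7 stellate cell and fibroblast markers 5 fell and 2 did not pass, with a summed level of 259 CPM (79.6 to 1458) at D90 and 454 CPM (97.3 to 1359) at D02. Of 5 macrophage markers 3 rose and 2 did not pass, and of 6 lymphocyte markers 1 rose and 5 did not pass. Of 5 endothelial markers 2 rose and 3 did not pass. Of 5 duct markers 1 rose and 1 fell, and of 5 adipocyte markers 1 fell and 4 did not pass. Of 3 delta and PP cell markers 2 rose and 1 did not pass, and of 7 pan-endocrine markers 4 rose and 2 fell. The adipocyte markers Adipoq, Plin1, Cfd and Retn had no count in most HFHS libraries of D90. At D30, HFHS against RC, 6 of 8 glia, 5 of 7 stellate cell and fibroblast and 4 of 13 neuron markers were lower. No marker of these lists was higher. Their median log2 fold changes were -0.31, -0.45 and -0.18, against -0.012 over all genes, of which 9.93% were called in either direction. Of the other cell type lists, 1 beta cell, 1 pan-endocrine and 1 adipocyte marker were higher. The part of a change in cell makeup in the members' values was not tested beyond the acinar covariate.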

How the data were processed

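Total RNA of at least 150 islets per mouse was made into libraries with a TruSeq RNA v2 kit, which keeps no strand, per the labels' protocols. TopHat 1.3.3, SAMtools 0.1.16, HTSeq 0.5.3p3, edgeR and build mm9 are named in the submitters' processing notes. The deposited raw table holds a whole-number count of reads per gene symbol and library. A second deposited table, normalized by the authors, gives log2 values for 14826 genes and served only as an alternative. Groups follow the strain, diet and time point in the labels. Replicates are mice, so p-values measure the spread between mice and their library preparation together.

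Counts were fitted with edgeR 4.0.16 (R 4.3.3): filterByExpr over the 48 groups, TMM, a robust quasi-likelihood fit of the 48 group means, F tests on contrasts that weight strains equally, and Benjamini-Hochberg adjustment over 16498 genes at 0.05. The prior count was 2, and SEs follow from F. The test of HFHS D90 against D02 was tried on simulated counts. GC content came from the longest annotated transcript (98.4% of genes). Limma 3.58.1 and DESeq2 1.42.0 served in alternatives. Per library, 9526930 to 50751900 reads (median 25989200) were assigned to genes. CPM uses that total without TMM. Tests and SEs use the spread between mice, which is larger than the counting error.

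The 3 genes, the gene lists and the tests were chosen with earlier results of these data known. Besides the members, the text names for each member the 5 genes with the highest r, and from each list up to 4 genes with the smallest p on HFHS at D90 against D02 and those a sentence turns on. Some genes of the lists are counted but not reported here by name. Mouse numbers do not pair diets: 52 same-numbered pairs had a median correlation of -0.096 in their deviations, against 0.015 for 516 other pairs.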

Additional observations from a re-analysis of the deposited data

Results flagged for a closer look

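Single mice stood apart from their group in 12 cases, 8.51% of the tests of a gene in a group of 4 to 10 mice (Dixon's test at the 95% level), where chance gives about 1 in 20. For Nmnat2 these were mouse 6RC29 of 129S2/SvPas RC D30 at 41.7 CPM (next mouse 26.96), mouse 4HF27 of A/J HFHS D30 at 1.20 (next 4.04), mouse 1RC116 of C57Bl/6J RC D02 at 2.95 (next 6.36) and mouse 2RC109 of DBA/2J RC D30 at 5.73 (next 4.51). For Rasd2 they were mouse 6HF32 of 129S2/SvPas HFHS D30 at 22.2 CPM (next 15.1), mouse 5HF29 of AKR/J HFHS D30 at 10.6 (next 7.31) and mouse 2HF127 of DBA/2J HFHS D30 at 39.8 (next 32.5). For Kcnf1 they were mouse 6HF47 of 129S2/SvPas HFHS D90 at 28.5 CPM (next 16.4), mouse 6RC2 of 129S2/SvPas RC D02 at 20.4 (next 8.95), mouse 4HF28 of A/J HFHS D30 at 4.83 (next 9.29), mouse 4RC27 of A/J RC D30 at 13.3 (next 8.19) and mouse 5HF3 of AKR/J HFHS D02 at 0.40 (next 1.01). Of these libraries 2RC109 and 6RC2 lie beyond the GC bound, and 6RC2 is also closest to another strain.

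The change from D02 to D90 on HFHS differed between strains for each member, by the strain by time interaction: F = 9.13 for Nmnat2, F = 4.70 for Rasd2 and F = 6.48 for Kcnf1. Such a difference was called for 86.7% of all genes, so these calls are near the background.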

How the results depend on the processing

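Over the alternatives run, 483 of 528 values that answer a comparison were kept. Of the others 15 gained a call, 2 lost one, 1 changed sign and 27 counts or correlations moved. Of 582 values of single strains 562 were kept, 6 gained a call, 8 lost one, 2 changed sign and 4 untested ones moved. A tested value was kept if it held its direction and its side of the threshold. An untested fold change was kept if it held its direction and shifted by less than the SD among mice. Counts of genes called were kept within a set ratio, and correlations within the interval of the reported value. Values called in neither fit are counted as kept whatever their sign. Leaving out 1 mouse of a group of 4 or 5 changed no call. Rasd2 at HFHS D10 over D02 (0.36) was not called within the GC bound (0.26) or with GC curves as an offset (0.20), and Kcnf1 there (-0.10) turned to 0.35 within the GC bound. Kcnf1 at RC D30 over D10 (0.45, not called) was called with only the groups compared (0.46), the authors' table (0.49), DESeq2 (0.47), the GC bound (0.46), without libraries closest to another strain (0.46) and voom (0.45). Kcnf1 at D30, HFHS over RC (0.31, not called), was called with acinar markers as a covariate (0.30), only the groups compared (0.31), DESeq2 (0.32), the GC bound (0.30), without mouse 6RC89 (0.31), without libraries closest to another strain (0.31), DESeq2 size factors (0.32) and voom (0.28). In single strains, Kcnf1 in A/J turned to -0.067 under voom (HFHS D90 over D02), and in 129S2/SvPas to -0.15 with GC curves as an offset (RC D90 over D02).

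Mouse numbers do not pair the diets. With the number as a replicate block Kcnf1 at D30 was called (0.31, adjusted p = 7.70e-04), and 0.6001% of genes were called at D10 and 45.3% at D30, against 0.946% and 9.93% as reported.

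The number of genes called, given as a percent of 16498, moved most. HFHS D90 over D02 gave 40.7% within the GC bound and 24.3% without BALB/cJ, against 61.1% as reported. HFHS D10 over D02 gave 17.6% within the GC bound, against 30.1%. HFHS D30 over D10 gave 18.8% with GC curves as an offset, against 29.04%, and D90 over D30 gave 25.7% with voom, against 15.8%. RC D30 over D10 gave 0.327% with the acinar covariate, 3.16% with only the groups compared, 0.261% in the authors' table, 0.509% with DESeq2, 5.59% within the GC bound, 0.588% with GC curves as an offset, 0.855% without libraries closest to another strain and 22.1% with voom, against 0.1697%. HFHS over RC at D10 gave 3.27% within the GC bound, 1.87% with GC curves as an offset, 1.82% without libraries closest to another strain and 20.5% with voom. At D30 it gave 23.8% with the acinar covariate, 46.3% with only the groups compared, 39.8% within the GC bound, 21.2% without libraries closest to another strain and 48.1% with voom. Over mice, r of Rasd2 with Kcnf1 (0.21) was 0.35 within the GC bound, 0.31 with GC curves removed and 0.34 without libraries closest to another strain. The cause was not tested, other than that fewer libraries enter some of these fits.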
